A study of Mus musculus with 7 samples.

Results

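Interferon-stimulated genes are the genes that cells switch on after a type I interferon has bound its receptor. Here they were followed in whole liver of C57BL/6 mice as a list of 41 genes: receptors, transcription factors, sensors of foreign nucleic acid and antiviral effectors, outside the guanylate-binding GTPases and the MHC genes. The list was written by symbol and role, with earlier results of these data known, and all 41 had a row among the 37620 genes of the count table. All 41 also passed the filter on low counts, among 15249 genes tested.

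RNA was sequenced from flash-frozen liver of mice on a Western diet for 30 weeks. In 4 libraries the mice had high total bile acids, called H-TBA, and in 3 they had low total bile acids, called L-TBA. Strain, tissue and diet were the same in both groups, and no other diet is analysed here. Age and sex are not in the labels. Nor do they tie libraries to individual mice, so a p-value here reflects only how far these libraries vary, which may be technical. The comparison asked how the fatty liver of mice with spontaneously high bile acids differs from that of mice with low bile acids.

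Type I interferons bind a receptor built from IFNAR1 and IFNAR2. The kinases JAK1 and TYK2 then phosphorylate STAT proteins, and STAT2 acts with IRF9 in the complex ISGF3. ISGF3 binds a short promoter element, the interferon-stimulated response element (ISRE), and so raises the genes described here; several of them, STAT2, IRF9 and the sensors among them, are parts of the pathway itself. In liver, hepatocytes, Kupffer cells and endothelial cells can all respond to type I interferon.

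The ISRE was searched on both strands as GAAA, any 2 bases and GAAA again, in the 250 bases before each start in the RefSeq promoter table (GRCm38.p6). Of the 41 genes, 31 had a record there, and 9 of these (29.0%) held a match, against 3.46% of all 27025 genes in the table. No record was used for Dhx58, Zbp1, Usp18, Oas2, Mx1, Mx2, Parp9, Parp14, Ifi27 and Rtp4. Matches lay in 6 of the 15 genes with a record that were lower in H-TBA (below), in 0 of the 2 that were higher and in 3 of the 14 that were not called, namely Oas1a, Oas3 and Bst2. The element of interferon gamma signalling, the GAS, was searched as TTCNNNGAA, which reads the same on both strands. Of the 31 genes, 7 (22.6%) held it, against 8.13% of all genes. It lay in 2 of the 15 lower genes, in 0 of the 2 higher and in 5 of the 14 not called. Of 15 ISRE matches in the list, 1 overlapped a GAS match. A match describes letters and shows no binding.

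Stretches of 100 bases are printed for the 6 genes that were lower and held the ISRE letters, chosen by match and call alone. Each runs 5′ to 3′ on the gene's own strand and lies wholly before the start, and capitals mark the ISRE matches. TTTC, any 2 bases and TTTC is the same element read on the opposite strand. Stat2 is at chr10:128270248-128270347 (plus strand), Ifit3 at chr19:34583345-34583444 (plus), Isg15 at chr4:156200836-156200935 (minus), Ifit1 at chr19:34640749-34640848 (plus), Rsad2 at chr12:26456518-26456617 (minus) and Trim30a at chr7:104465194-104465293 (minus).
Stat2: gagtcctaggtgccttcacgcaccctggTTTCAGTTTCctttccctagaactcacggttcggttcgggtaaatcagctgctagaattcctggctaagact
Ifit3: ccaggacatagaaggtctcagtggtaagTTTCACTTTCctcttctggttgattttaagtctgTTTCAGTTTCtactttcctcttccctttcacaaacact
Isg15: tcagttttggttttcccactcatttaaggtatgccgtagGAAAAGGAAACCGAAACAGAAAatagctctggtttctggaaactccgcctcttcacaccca
Ifit1: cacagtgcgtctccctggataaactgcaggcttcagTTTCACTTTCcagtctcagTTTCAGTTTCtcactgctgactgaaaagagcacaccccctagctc
Rsad2: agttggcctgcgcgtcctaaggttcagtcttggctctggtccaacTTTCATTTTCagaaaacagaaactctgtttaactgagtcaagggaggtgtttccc
Trim30a: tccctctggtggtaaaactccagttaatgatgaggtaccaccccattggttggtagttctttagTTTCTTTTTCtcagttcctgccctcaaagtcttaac
The 3 overlapping matches of Isg15 began 78, 72 and 66 bases before the start. Ifit1 had matches at 104 and 85 bases and Ifit3 at 156 and 122 bases, so both carried a pair. The single matches of Trim30a, Rsad2 and Stat2 began 36, 120 and 222 bases before the start.

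Interferon-stimulated genes were more often lower than higher in the livers with high bile acids. By edgeR's quasi-likelihood test with Benjamini-Hochberg adjustment over all tested genes at 0.05, 20 of the 41 were lower in H-TBA, against a background of 10.7% of all tested genes. Only 2 were higher, against 13.1% of all tested genes, and 19 were not called. In either direction 22 of the 41 were called, against 23.9% of all tested genes. In 21 of the 41 every H-TBA library lay below every L-TBA library (16.3% of all tested genes), and in 2 every H-TBA library lay above (17.2%). The median log2 fold change, H-TBA over L-TBA, was -0.35 over the list and 0.00 over all tested genes. The differences were small: the fitted values ran from -0.999 (Ifit3) to 0.58 (Oasl2), and 34 were negative, against 49.4% of all tested genes.

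**Figure D1:**
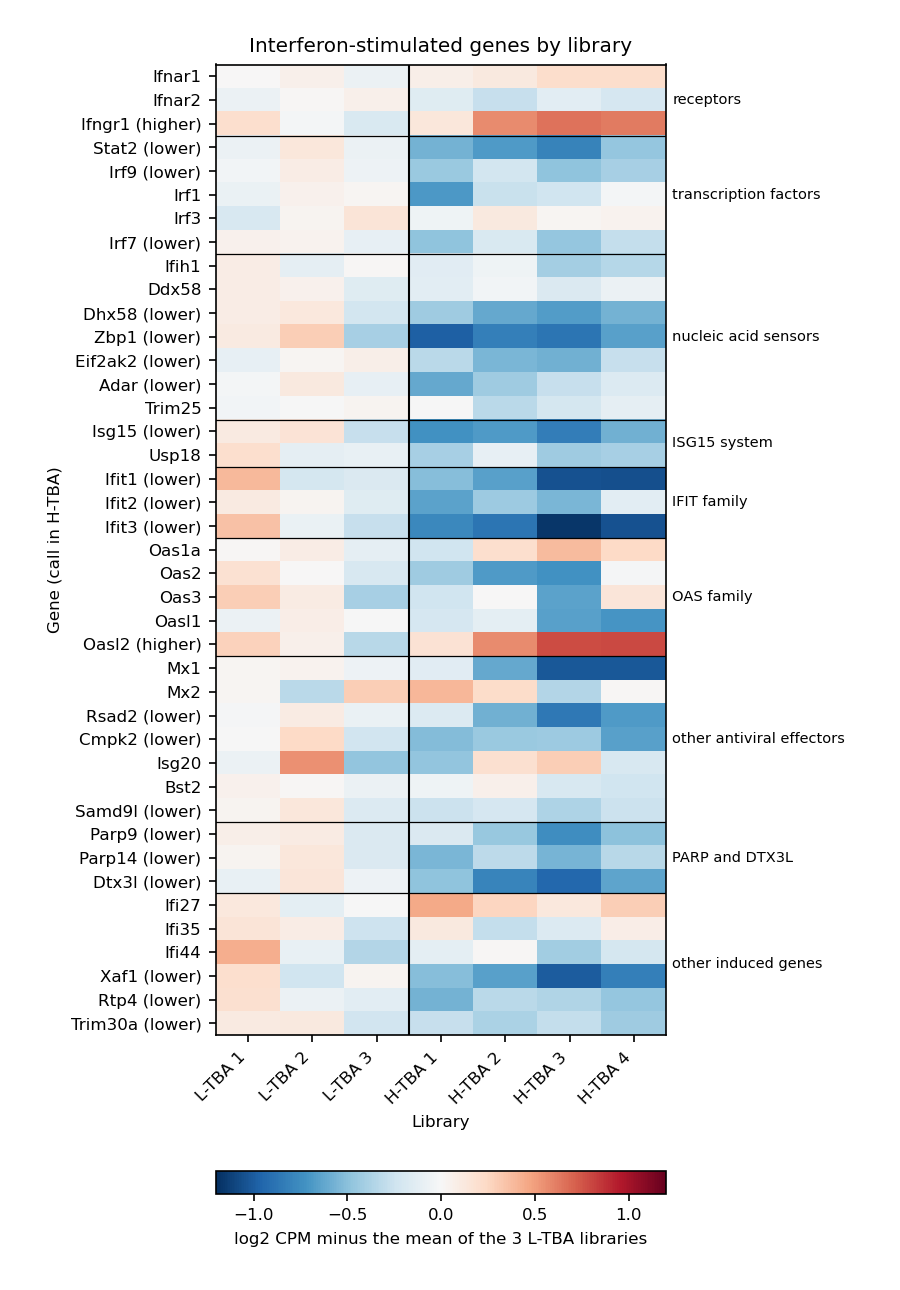
Each row is 1 of the 41 genes, grouped by role, and each column 1 library. Colour gives log2 CPM (counts scaled by the effective library size) minus the mean of the 3 L-TBA libraries, with blue lower and red higher, and the call of the edgeR test stands beside the name. Blue fills most of the 4 H-TBA columns, with Ifngr1, Oasl2 and Ifi27 in red.

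The lower level was present in each H-TBA library. In H-TBA 1 to 4 the median gene of the list lay at -0.28, -0.28, -0.43 and -0.28 on the log2 CPM scale relative to the L-TBA mean, while the median over all tested genes stayed within 0.01 of 0 in every library. H-TBA 1, which lay nearest to the L-TBA libraries on the first principal component of all genes (at -10.7, with the other H-TBA libraries between -43.5 and -34.6), was thus as low as H-TBA 2 and 4 for these genes. The L-TBA libraries lay at 0.06, 0.05 and -0.10. L-TBA 3 was the lowest L-TBA library for 27 of the 41 genes. Summed over the list, levels were 1474 to 1602 CPM in L-TBA and 1252 to 1358 CPM in H-TBA, without overlap at this scaling. Taken over plain library totals the sums did overlap. The list held 14711 of 10973114 counts in L-TBA 3, a smaller share than the 16631 of 11488951 in H-TBA 4.

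The size of the split depended on the scaling. With plain library totals the median over all genes moved to 0.16. Of the 41, 9 were then lower and 4 higher, against 5.46% and 20.4% of all tested genes. A change of scaling moves all genes by nearly the same amount. The list's median relative to that of all genes, -0.36 with either scaling, is thus no check on the scaling. Leaving out L-TBA replicate 1 or 2 reduced the lower genes to 13 and 12, against 6.67% and 7.44% of all tested genes. Of the 22 called genes, 10 retained their call without any single library: Stat2, Irf9, Dhx58, Zbp1, Isg15, Ifit1, Ifit3, Parp14, Dtx3l and Xaf1. Of these, all but Irf9 and Parp14, which lost theirs with library totals, kept it under all 14 alternatives. The spans of adjusted p given below for single genes cover these alternatives other than the replicate block.

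**Figure D2:**
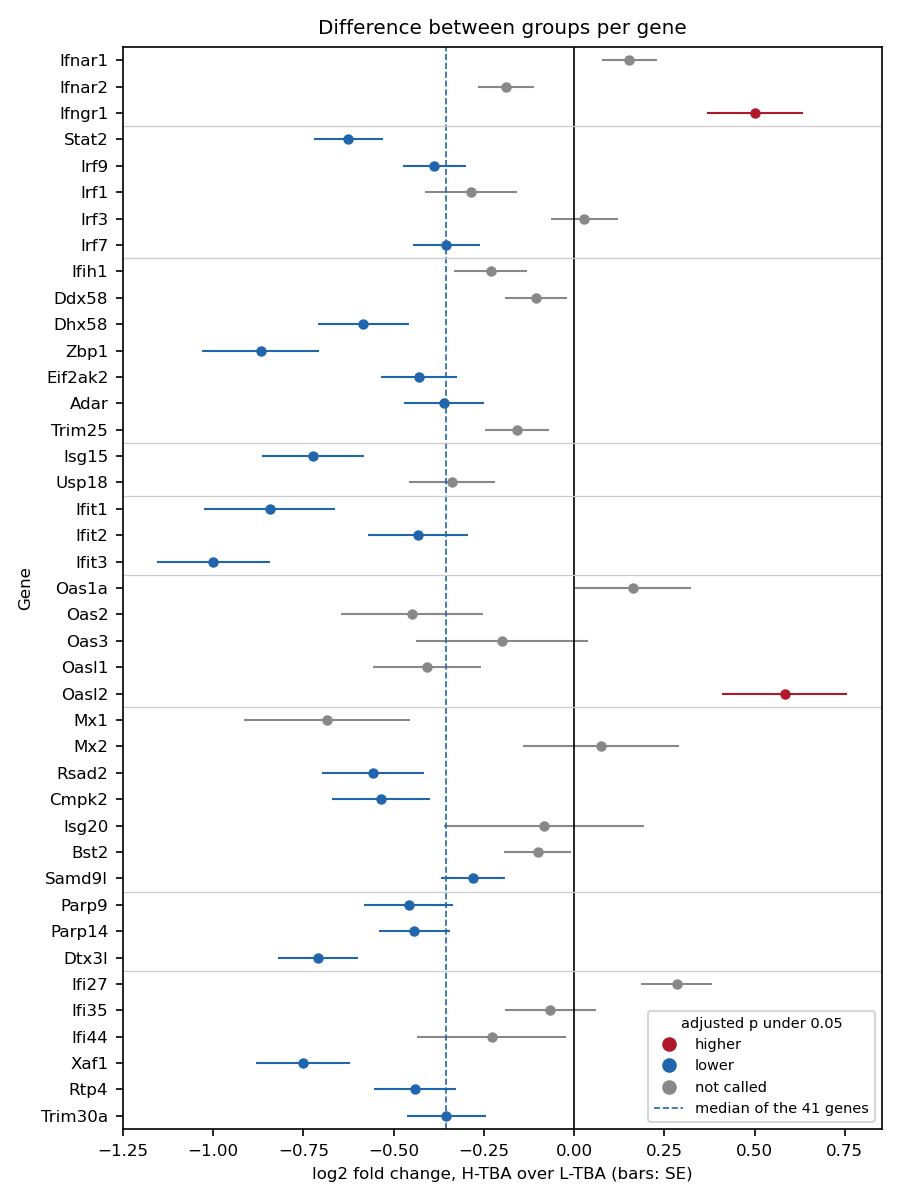
Points give the fitted log2 fold change of each gene, H-TBA over L-TBA, and bars its standard error; blue is lower, red higher and grey not called. The dashed line marks the list's median of -0.35, and most points lie to the left of 0.

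The receptors did not fall as a group. Ifnar1 (ENSMUSG00000022967), a chain of the type I interferon receptor, stood at 46.6, 48.7 and 44.5 CPM in L-TBA and at 49.0, 50.5, 54.0 and 53.8 CPM in H-TBA. Ifnar2 (ENSMUSG00000022971), its partner chain, stood at 45.9, 48.7 and 50.3 CPM in L-TBA and at 43.7, 39.7, 44.2 and 41.8 CPM in H-TBA. The groups did not overlap for either chain, in opposite directions, but neither passed the edgeR test: log2 fold change 0.15 ± 0.08 (SE, adjusted p = 0.172) for Ifnar1 and -0.19 ± 0.08 (adjusted p = 0.101) for Ifnar2. With library totals Ifnar1 passed (adjusted p = 0.0392, with alternatives spanning 0.0392 to 0.417). Ifngr1 (ENSMUSG00000020009), the ligand-binding chain of the interferon gamma receptor, was at 39.4, 33.7 and 30.1 CPM in L-TBA and at 37.5, 50.7, 53.8 and 52.8 CPM in H-TBA. It rose by 0.50 ± 0.13 (SE) on the log2 scale (edgeR adjusted p = 0.0193), with H-TBA 1 inside the L-TBA range. Without H-TBA 2, H-TBA 4, L-TBA 2 or L-TBA 3 it no longer passed (adjusted p = 0.0509, 0.0575, 0.064 and 0.0823, with alternatives spanning 0.00103 to 0.0823).

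Parts of ISGF3 were lower. Stat2 (ENSMUSG00000040033), its activating subunit, stood at 59.95, 69.4 and 60.1 CPM in L-TBA and at 42.5, 39.4, 36.1 and 45.7 CPM in H-TBA. Irf9 (ENSMUSG00000002325), the subunit that recognises DNA, stood at 46.0, 50.2 and 45.1 CPM in L-TBA and at 34.6, 40.4, 33.5 and 35.7 CPM in H-TBA. All 4 H-TBA libraries lay below all L-TBA libraries for both genes. Stat2 fell by 0.63 ± 0.10 (SE) on the log2 scale (edgeR adjusted p = 0.00115) and Irf9 by 0.39 ± 0.09 (adjusted p = 0.00832). Irf9 lost its call with library totals (adjusted p = 0.0927, with alternatives spanning 0.00401 to 0.0927).

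The other interferon regulatory factors did not move alike. Irf7 (ENSMUSG00000025498), which amplifies interferon production and is itself induced, stood at 53.5, 53.1 and 48.2 CPM in L-TBA and at 36.8, 45.5, 37.2 and 42.2 CPM in H-TBA. It fell by 0.35 ± 0.09 on the log2 scale (edgeR adjusted p = 0.0182) without overlap of the groups. Without L-TBA 1 or L-TBA 2 it no longer passed (adjusted p = 0.0704 and 0.0649), nor with library totals (0.187), with alternatives spanning 0.0132 to 0.187. Irf3 (ENSMUSG00000003184), a factor present before induction that starts interferon production, stood at 43.2, 50.6 and 55.2 CPM in L-TBA and at 47.7, 53.7, 50.3 and 50.7 CPM in H-TBA. The ranges of Irf3 overlapped, at a log2 fold change of 0.03 ± 0.09 (adjusted p = 0.865). Irf1, a factor shared with interferon gamma signalling, missed the threshold at -0.29 ± 0.13 (adjusted p = 0.13); H-TBA 1 had the lowest level, 34.1 CPM, and H-TBA 4, at 54.0 CPM, lay within the L-TBA range of 52.1 to 57.1 CPM.

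Of the 7 genes for sensing nucleic acid, 4 were lower and 0 higher by edgeR. The 2 called most firmly were the accessory sensor Dhx58 and Zbp1, and the main RNA sensors Ddx58 (RIG-I) and Ifih1 (MDA5) were not called. Zbp1 (ENSMUSG00000027514), a sensor of Z-form nucleic acid that can start cell death, stood at 17.8, 20.3 and 12.5 CPM in L-TBA and at 8.31, 9.29, 8.95 and 10.4 CPM in H-TBA. Dhx58 (ENSMUSG00000017830), which encodes LGP2, a helicase that modulates the other two RNA sensors, stood at 16.7, 17.1 and 13.4 CPM in L-TBA and at 11.6, 10.2, 9.76 and 10.5 CPM in H-TBA. For both genes L-TBA 3 was the lowest L-TBA library and still lay above all H-TBA libraries. Zbp1 fell by 0.87 ± 0.16 on the log2 scale (edgeR adjusted p = 0.00325), which is 1.83-fold lower, and Dhx58 by 0.58 ± 0.12 (adjusted p = 0.0064).

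Eif2ak2 (ENSMUSG00000024079), the kinase PKR that halts translation on double-stranded RNA, stood at 23.0, 25.04 and 25.8 CPM in L-TBA and at 19.6, 16.7, 16.4 and 20.2 CPM in H-TBA. Adar (ENSMUSG00000027951), which edits double-stranded RNA and thereby restrains the sensors, stood at 35.9, 39.5 and 34.2 CPM in L-TBA and at 23.7, 27.1, 30.2 and 32.6 CPM in H-TBA. The groups did not overlap for either gene. Eif2ak2 fell by 0.43 ± 0.11 on the log2 scale (edgeR adjusted p = 0.0127) and Adar by 0.36 ± 0.11 (adjusted p = 0.0361). Eif2ak2 no longer passed without L-TBA 3 (adjusted p = 0.0537) or with library totals (0.0867), with alternatives spanning 0.00868 to 0.0867. Adar no longer passed without H-TBA 2, H-TBA 3, L-TBA 1, L-TBA 2 or L-TBA 3 (0.0882, 0.0506, 0.0808, 0.131 and 0.0513) or with library totals (0.312), with alternatives spanning 0.0246 to 0.312. Exons of Chrnb2 on the opposite strand cover 16.8% of the Adar exons in GENCODE M21, and the strand setting of the counts is not given in the sources used here. Ifih1 was at -0.23 ± 0.10 (adjusted p = 0.122), Ddx58 at -0.11 ± 0.09 (0.41) and Trim25, a ubiquitin ligase of the RIG-I pathway, at -0.16 ± 0.09 (0.228); all 3 overlapped between the groups.

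ISG15 is a ubiquitin-like protein that is joined to other proteins after interferon, and USP18 removes it and also blocks the receptor. Isg15 (ENSMUSG00000035692), whose promoter held the 3 overlapping ISRE matches, stood at 14.9, 15.5 and 11.4 CPM in L-TBA and at 8.31, 8.601, 7.72 and 9.22 CPM in H-TBA. It fell by 0.72 ± 0.14 on the log2 scale (edgeR adjusted p = 0.00384), with no overlap. Usp18 missed the threshold at -0.34 ± 0.12 (adjusted p = 0.0606). Usp18 stood at 21.8 CPM in H-TBA 2 and between 17.2 and 17.6 CPM in the other 3 H-TBA libraries, and it passed without H-TBA 2 and with limma-voom (adjusted p = 0.0286 and 0.0421, with alternatives spanning 0.0286 to 0.307).

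All 3 members of the IFIT family, which bind foreign RNA and block its translation, were lower. Ifit3 (ENSMUSG00000074896) stood at 30.7, 22.7 and 19.7 CPM in L-TBA and at 13.9, 13.0, 10.6 and 11.5 CPM in H-TBA. Ifit1 (ENSMUSG00000034459) stood at 27.6, 18.1 and 18.6 CPM in L-TBA and at 14.7, 13.3, 10.1 and 10.03 CPM in H-TBA. In both, L-TBA 1 was the highest library and no H-TBA library reached the lowest L-TBA one. Ifit3 fell by 0.999 ± 0.16 on the log2 scale (edgeR adjusted p = 0.00121), the largest fall in the list at 1.999-fold, and Ifit1 by 0.84 ± 0.18 (adjusted p = 0.00644). Both promoters printed above carry a pair of ISRE matches, as do those of Oas1a and Bst2, which were not called. Ifit2 (ENSMUSG00000045932) stood at 17.97, 17.0 and 15.03 CPM in L-TBA and at 10.6, 12.2, 11.3 and 15.2 CPM in H-TBA, so that H-TBA 4 reached the L-TBA range. Ifit2 fell by 0.43 ± 0.14 (edgeR adjusted p = 0.0422), a call lost with DESeq2, library totals and the stricter filter (adjusted p = 0.0525, 0.23 and 0.0533) and without H-TBA 1, H-TBA 2, H-TBA 3, L-TBA 1 or L-TBA 2 (0.0658, 0.088, 0.102, 0.147 and 0.106), with alternatives spanning 0.0155 to 0.23. Ifit3 has a close copy, Ifit3b, and the counting could split reads between them; Ifit3b also fell (below).

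Several enzymes of the OAS family make the messenger that activates RNase L, and the list also holds the OAS-like Oasl1 and Oasl2. Of 5 genes, 0 were lower and 1 higher by edgeR's adjusted p, and 3 of the 5 had negative fold changes. Oasl2 (ENSMUSG00000029561), an OAS-like protein, stood at 17.1, 14.7 and 11.1 CPM in L-TBA and at 16.0, 21.0, 24.4 and 24.5 CPM in H-TBA. It rose by 0.58 ± 0.17 on the log2 scale (edgeR adjusted p = 0.032), with H-TBA 1 inside the L-TBA range. Oasl2 no longer passed without H-TBA 2, H-TBA 3, H-TBA 4, L-TBA 2 or L-TBA 3 (adjusted p = 0.0633, 0.0796, 0.0922, 0.0747 and 0.122), with alternatives spanning 0.00394 to 0.122. Its paralog Oasl1, which restrains IRF7 translation, was at -0.41 ± 0.15 with all H-TBA libraries (12.5 to 18.9 CPM) below all L-TBA libraries (19.4 to 21.6 CPM), and did not pass (adjusted p = 0.0711). Oasl1 passed with limma-voom and without H-TBA replicate 1 or 2 (0.0264, 0.0334 and 0.0367, with alternatives spanning 0.0264 to 0.194). Oas1a, Oas2 and Oas3 were at 0.16 ± 0.16, -0.45 ± 0.20 and -0.20 ± 0.24 and did not pass (adjusted p = 0.502, 0.121 and 0.589); Oas2 passed without H-TBA 4 (0.0358, with alternatives spanning 0.0358 to 0.328). Oas1a belongs to a cluster of near copies, so its counts are uncertain.

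Among the other antiviral effectors 3 of 7 were lower and 0 higher by edgeR. Rsad2 (ENSMUSG00000020641), which encodes viperin, an enzyme that makes a chain-terminating nucleotide, stood at 31.4, 34.0 and 30.1 CPM in L-TBA and at 28.3, 21.3, 17.5 and 19.7 CPM in H-TBA. Cmpk2 (ENSMUSG00000020638), its neighbour in the genome and a nucleotide kinase of mitochondria, stood at 13.9, 16.4 and 11.8 CPM in L-TBA and at 9.62, 10.2, 10.2 and 8.82 CPM in H-TBA. Samd9l (ENSMUSG00000047735), which blocks viral protein synthesis, stood at 47.2, 50.8 and 41.1 CPM in L-TBA and at 38.5, 40.2, 35.7 and 38.5 CPM in H-TBA. The groups were separate in all 3 genes, narrowly in Samd9l. Rsad2 fell by 0.56 ± 0.14 on the log2 scale (edgeR adjusted p = 0.0152), Cmpk2 by 0.54 ± 0.14 (0.0157) and Samd9l by 0.28 ± 0.09 (0.0422). Rsad2 and Cmpk2 no longer passed without H-TBA 4 (adjusted p = 0.0518 and 0.0506) or L-TBA 2 (0.0581 and 0.0797), and Cmpk2 not with library totals (0.0936). Alternatives spanned 0.000416 to 0.0581 for Rsad2 and 0.0111 to 0.0936 for Cmpk2. Samd9l kept its call in 5 of 14 alternatives, with alternatives spanning 0.0233 to 0.368, and lost it without H-TBA 2, H-TBA 3, H-TBA 4, L-TBA 1 or L-TBA 2 (0.0589, 0.104, 0.0863, 0.119 and 0.176) and with DESeq2, library totals or no filter (0.0603, 0.368 and 0.0511).

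Mx1 (ENSMUSG00000000386), the antiviral dynamin-like GTPase whose allele in most laboratory mouse strains is defective, stood at 5.87, 5.92 and 5.51 CPM in L-TBA and at 5.23, 3.71, 2.77 and 2.75 CPM in H-TBA. All H-TBA libraries lay below L-TBA, at a log2 fold change of -0.68 ± 0.23 that narrowly missed the threshold (edgeR adjusted p = 0.0516). Mx1 passed without H-TBA replicate 1 (0.00435), with limma-voom (0.00924), with DESeq2 size factors (0.0497) and without a filter (0.041), with alternatives spanning 0.00435 to 0.134. Its paralog Mx2 was at 0.07 ± 0.22 (adjusted p = 0.84). Bst2, which encodes tetherin and holds budding virus at the cell surface, was the most abundant gene of the list per length of exon, at 187 CPM per kb in L-TBA, and did not pass at -0.10 ± 0.09 (adjusted p = 0.467). The exonuclease gene Isg20 was at -0.08 ± 0.28 (0.865) and rested on 27 counts in its lowest library.

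PARP9, its partner DTX3L and PARP14 act in ADP-ribosylation and ubiquitylation after interferon, and their genes lie together; all 3 were lower. Dtx3l (ENSMUSG00000049502) stood at 61.2, 72.1 and 62.3 CPM in L-TBA and at 46.4, 37.5, 33.8 and 41.8 CPM in H-TBA. Parp14 (ENSMUSG00000034422) stood at 54.2, 58.2 and 47.1 CPM in L-TBA and at 36.2, 42.5, 35.9 and 42.0 CPM in H-TBA. Neither overlapped between groups. Parp9 (ENSMUSG00000022906) stood at 69.5, 70.7 and 58.7 CPM in L-TBA and at 58.8, 48.3, 39.3 and 47.0 CPM in H-TBA, with H-TBA 1 just above L-TBA 3. Dtx3l fell by 0.71 ± 0.11 on the log2 scale (edgeR adjusted p = 0.00121), Parp14 by 0.44 ± 0.10 (0.00803) and Parp9 by 0.46 ± 0.12 (0.0202). Parp14 lost its call with library totals (adjusted p = 0.0837, with alternatives spanning 0.00236 to 0.0837). Parp9 no longer passed without H-TBA 2, H-TBA 4, L-TBA 1 or L-TBA 2 (0.0514, 0.059, 0.0734 and 0.0759) or with library totals (0.0609), with alternatives spanning 0.0019 to 0.0759. Exons of Dtx3l and Parp9 overlap on opposite strands over 458 bases in GENCODE M21, so their counts may be partly shared.

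Of the remaining 6 induced genes, 3 were lower and 0 higher by edgeR. Xaf1 (ENSMUSG00000040483), a pro-apoptotic partner of XIAP, stood at 59.0, 43.3 and 52.5 CPM in L-TBA and at 36.0, 32.5, 25.5 and 28.9 CPM in H-TBA. Rtp4 (ENSMUSG00000033355), a receptor chaperone induced by interferon, stood at 22.5, 18.8 and 18.03 CPM in L-TBA and at 13.2, 15.6, 15.3 and 14.2 CPM in H-TBA. Trim30a (ENSMUSG00000030921), a TRIM protein that dampens inflammatory signalling, stood at 23.8, 24.1 and 18.8 CPM in L-TBA and at 18.2, 16.9, 18.1 and 16.4 CPM in H-TBA. The groups were separate in all 3, by the least in Trim30a. Xaf1 fell by 0.75 ± 0.13 on the log2 scale (edgeR adjusted p = 0.00206), Rtp4 by 0.44 ± 0.11 (0.0163) and Trim30a by 0.35 ± 0.11 (0.0365). Rtp4 lost its call without L-TBA 1 (0.0883) and with library totals (0.145), with alternatives spanning 0.0117 to 0.145. Trim30a kept its call in 6 of 14 alternatives, with alternatives spanning 0.0159 to 0.264, and lost it without H-TBA 2, H-TBA 3, H-TBA 4, L-TBA 1 or L-TBA 2 (0.0809, 0.0583, 0.0958, 0.138 and 0.134) and with DESeq2 or library totals (0.0573 and 0.264).

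Ifi27, a mitochondrial and nuclear envelope protein gene that is among the most abundant of the list, went the other way. It stood at 128, 108 and 117 CPM in L-TBA and at 161, 140.5, 129 and 144 CPM in H-TBA, with every H-TBA library above L-TBA. Its log2 fold change of 0.28 ± 0.10 did not pass (edgeR adjusted p = 0.0561). It passed with limma-voom, library totals and the stricter filter and without H-TBA replicate 3 (0.0447, 0.00432, 0.0436 and 0.0339), with alternatives spanning 0.00432 to 0.207. Ifi35 and Ifi44 were at -0.07 ± 0.13 and -0.23 ± 0.21 and overlapped between the groups (adjusted p = 0.749 and 0.464).

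**Figure D3:**
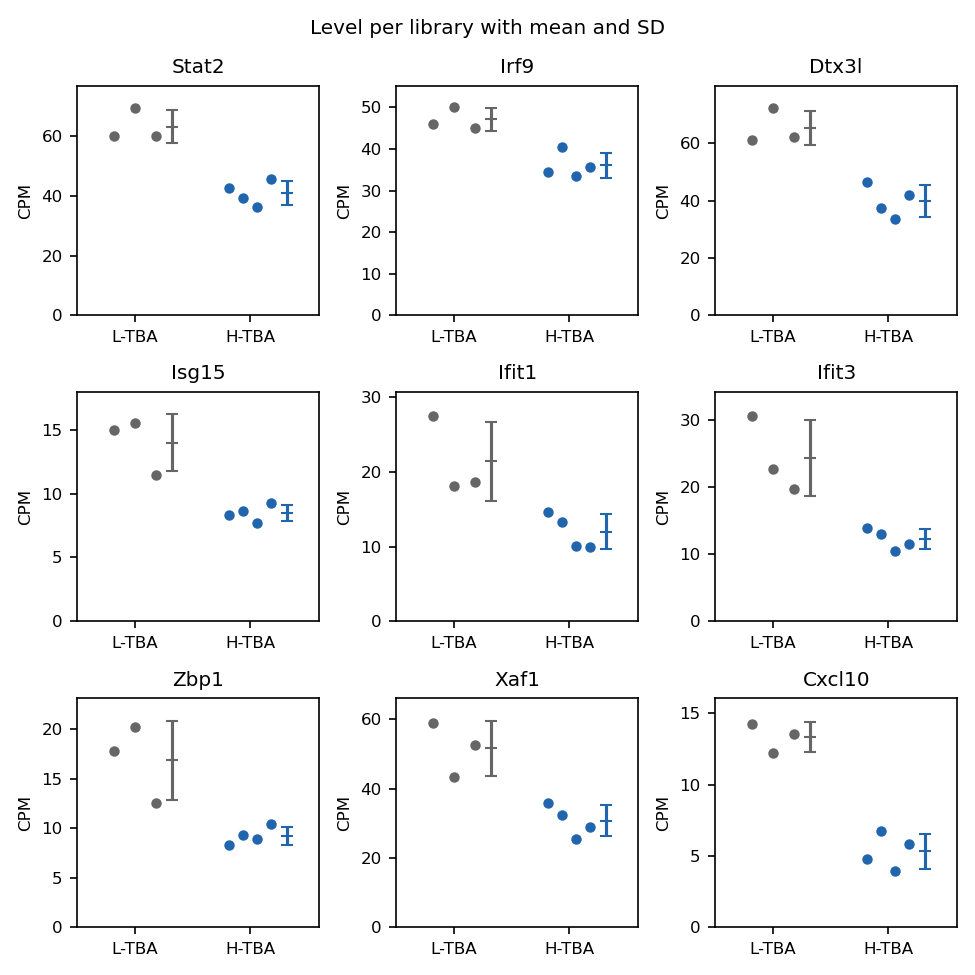
Levels in CPM of 8 of the 41 genes and of the pathway gene Cxcl10 are shown in each library (points), with the mean and SD of each group beside them (bar; n = 3 in L-TBA and n = 4 in H-TBA). Axes start at 0. No H-TBA point reaches the lowest L-TBA point in any of the 9 panels. All 9 are genes called lower with separate groups, so the panels do not stand for the list. The lower genes Ifit2 and Parp9, for which the groups overlapped, are not shown.

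Levels differed more between genes than between groups. Per length of exon, L-TBA means ran from 0.675 CPM per kb for Oas3 to 187 for Bst2, with Ifi27 at 80.5, Trim25 at 20.9 and Isg15 at 18.5. Isg15 was at 11.2 CPM per kb in H-TBA. The lowest count of a called gene in any library was 88.

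The rest of the interferon pathway was given by a list of 94 further genes, of which 91 had a row in the table and 81 were tested. Of the 81, 16 were lower and 2 higher by edgeR, at a median log2 fold change of -0.19, beside a background of 10.7% lower and 13.1% higher. Without L-TBA replicate 1 the numbers were 10 lower and 0 higher (3 higher at an unadjusted p under 0.05), and without L-TBA replicate 2 they were 8 lower and 2 higher. Without L-TBA replicate 3 they were 14 lower and 0 higher (3 at an unadjusted p under 0.05). In these 3 fits 6.67%, 7.44% and 7.30% of all tested genes were lower, and 9.91%, 9.47% and 9.69% higher. With library totals 7 pathway genes were lower and 6 higher, against 5.46% and 20.4% of all tested genes.

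Interferon transcripts themselves were near or below detection. Of 8 ligand genes with a row, 5 (Ifna2, Ifnb1, Ifne, Ifnl2 and Ifnl3) had 0 counts in all 7 libraries, which allows up to 0.243 to 0.301 CPM per library (3 counts, for counting error only). Ifna4 had 1 count in all, Ifnk 3 and Ifng 6, of which 2 were in H-TBA and 4 in L-TBA. No difference in ligand transcripts was detectable at this depth. Ifna1, Ifna5 and Ifnz are not analysed here.

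The receptor kinases were not called. Jak1 was at -0.15 ± 0.07 and Tyk2 at 0.14 ± 0.12 (adjusted p = 0.166 and 0.424), and the brakes Socs1, Socs3, Pias1, Ptpn2, Ptpn6 and Ptpn11 gave 0 calls of 6 by the adjusted p. Ube2l6 and Herc6, which join ISG15 to its targets, fell by 0.51 ± 0.13 and 0.50 ± 0.12 (adjusted p = 0.0137 and 0.0133). Both lost their calls with library totals (0.0616 and 0.079) and without L-TBA replicate 2 (0.0521 and 0.0666), and Ube2l6 also without L-TBA replicate 1 (0.0692). The ranges were 0.00274 to 0.0692 and 0.00969 to 0.079. For Ube2l6 the groups overlapped, with H-TBA 1 at 55.9 CPM and L-TBA 3 at 55.5 CPM. Uba7, also listed for ISG15 conjugation, was not called at 0.08 ± 0.13 (edgeR adjusted p = 0.711), with overlapping groups.

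Among genes that interferon induces beyond the 41, the chemokine gene Cxcl10 stood at 14.2, 12.2 and 13.5 CPM in L-TBA and at 4.76, 6.74, 3.99 and 5.83 CPM in H-TBA. It fell by 1.33 ± 0.17 on the log2 scale (edgeR adjusted p = 0.000552), which is 2.51-fold and more than any of the 41. Ifi27l2a fell by 1.70 ± 0.30 (adjusted p = 0.00244), from 2.88 ± 0.24 CPM (SD, n = 3) to 0.873 ± 0.34 CPM (SD, n = 4). The lysosomal thiol reductase gene Ifi30 fell by 0.61 ± 0.09 (0.000897), the RNA helicase gene Znfx1 by 0.39 ± 0.07 (0.0029), the repressor gene Irf2 by 0.41 ± 0.08 (0.00402) and the nucleotide-degrading Samhd1 by 0.38 ± 0.08 (0.00766). Ifit3b, Gbp2 and the membrane protein gene Ifitm3 fell by 0.77 ± 0.18, 1.10 ± 0.27 and 0.41 ± 0.10 (0.0104, 0.0123 and 0.0154). Library totals ended the calls of Znfx1, Samhd1 and Ifitm3 (0.0737, 0.164 and 0.0815). Ifit3b lost its call without L-TBA replicate 1 (0.0582), Gbp2 without L-TBA replicate 2 (0.0609) and Ifitm3 without H-TBA 4, L-TBA 1 or L-TBA 2 (0.0534, 0.074 and 0.0583). Ranges were 0.000175 to 0.0737 for Znfx1, 0.00338 to 0.164 for Samhd1, 0.00301 to 0.0582 for Ifit3b, 0.000775 to 0.0609 for Gbp2 and 0.00152 to 0.0815 for Ifitm3.

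The 2 pathway genes that were higher are named because they were the only ones, after their values had been seen. Ifnlr1, the receptor chain for interferon lambda that epithelia carry, stood at 0.95, 1.35 and 0.90 CPM in L-TBA and at 1.495, 2.64, 5.61 and 4.13 CPM in H-TBA, a rise of 1.70 ± 0.44 on the log2 scale (edgeR adjusted p = 0.0158), with no overlap. Ly6e, a surface protein gene induced by interferon, rose by 0.41 ± 0.13 (adjusted p = 0.0445) with overlapping groups. Neither passed without L-TBA 1 (edgeR adjusted p = 0.0601 for Ifnlr1 and 0.165 for Ly6e) or L-TBA 3 (0.0546 and 0.136), and Ly6e also failed without H-TBA 2, H-TBA 3 or H-TBA 4 (0.105, 0.0989 and 0.11). Alternatives spanned 0.00116 to 0.0601 for Ifnlr1 and 0.00328 to 0.165 for Ly6e.

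Some markers of several liver cell types differed between the groups. In bulk liver fewer cells of a type and less RNA per cell cannot be told apart. Of 6 Kupffer cell markers 2 were lower (Clec4f and Cd5l). Vsig4, Timd4, Marco and C6 were not called, at log2 fold changes of -0.91, -2.35, -1.36 and 0.16. The summed level of all 6 was 408 to 738 CPM in L-TBA and 269 to 357 CPM in H-TBA. Of 5 endothelial markers 2 were lower (Stab2 and Clec4g), at sums over all 5 of 136 to 178 and 105 to 128 CPM. Pecam1, Kdr and Cdh5 were not called, at log2 fold changes of 0.30, -0.02 and -0.21. Of 6 neutrophil markers, 4 of them tested, 2 were lower (S100a8 and Cxcr2), at sums of 21.2 to 26.0 and 14.6 to 15.2 CPM, with Ly6g at 0 in all libraries. All 6 cholangiocyte markers were higher, at sums of 429 to 684 CPM in L-TBA and 903 to 1732 CPM in H-TBA. Of 6 hepatocyte markers 2 were higher and 1 lower, and sums overlapped (54300 to 63550 and 52250 to 59130 CPM), with the markers present in every library as the tissue label has it. The part of these cell types in the lower interferon-stimulated genes was not tested.

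Summed levels of the other immune markers overlapped between the groups. Of 6 markers of plasmacytoid dendritic cells, the main producers of type I interferon, 0 of the 3 tested were called, and Siglech was at 0.488 to 1.47 CPM in all libraries; Bst2 is on this list as well. T and NK cell markers gave 0 calls of 5 tested and B and plasma cell markers 0 of 4, by edgeR's adjusted p. B and plasma cell sums ran from 10.4 to 94.2 CPM in L-TBA, highest in L-TBA 3, and from 6.35 to 19.9 CPM in H-TBA. L-TBA 3 also had the highest Clec4f, 117 CPM, and was the L-TBA library in which the listed genes had the lowest median. These values come from a single library, and any relation between them was not tested. Recruited macrophage markers had 1 higher of 6 (Cx3cr1), at overlapping sums of 104 to 152 and 104 to 146 CPM, and conventional dendritic cell markers 2 higher of 6 (Cd209a and Zbtb46). Of 5 markers of stellate cells and fibroblasts, 1 was called higher and 1 lower, at sums of 388 to 655 and 484 to 568 CPM.

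**Figure D4:**
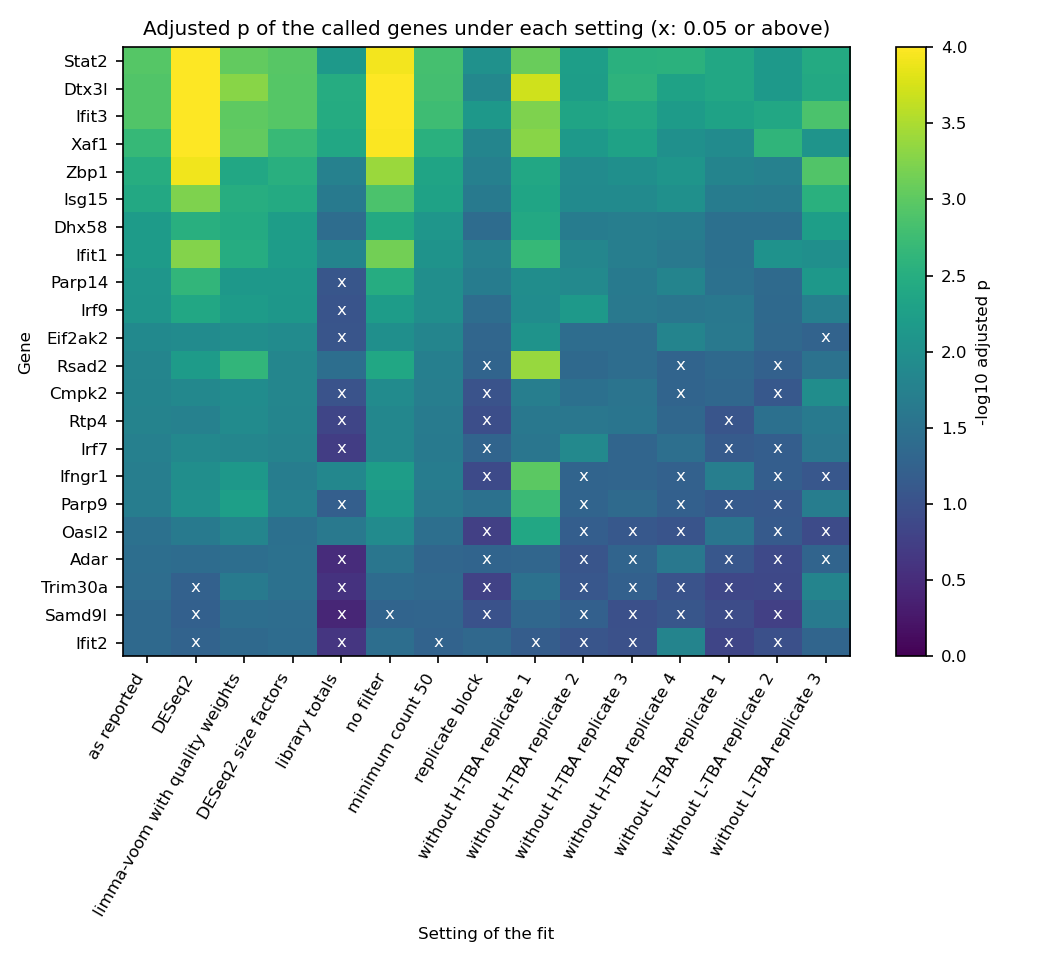
Rows are the 22 called genes in order of adjusted p and columns the fit as reported and its 14 alternatives; colour is -log10 of the adjusted p, and x marks a value of 0.05 or above. The upper 8 rows, Stat2 to Ifit1, carry no x, and marks gather in the lower rows and in the column for library totals.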

How the data were processed

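Whole liver RNA was sequenced in 7 libraries. What the authors deposited is a single table of unnormalized whole-number counts, with Ensembl genes as rows. Per the submitters' processing notes, reads and counts involved mm9 (the mouse build), TopHat2 2.0.11, CASAVA and DESeq2 1.18.1, with no role stated for any. How reads were counted, with which strand setting and gene models, is not stated in the labels. Symbols were matched by Ensembl identifier to a reference table of gene names (32897 of 37620 matched; Sting1 was matched as Tmem173), and exon lengths and overlaps from GENCODE M21 models. Promoters came from RefSeq on GRCm38.p6, another build than that of the counts. All 39 records of the listed genes (some have several) were checked against transcripts of the gene. In 33 the bases after the start lay in a GENCODE transcript in the given orientation. The rest gave no such match and were kept.

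Total counts were 9996990 to 12152613 per library. Genes were kept by filterByExpr (minimum count 10, minimum total count 15), scaled by TMM and tested with edgeR 4.0.16 in R 4.3.3 (quasi-likelihood, group as the only term, all 7 libraries), with Benjamini-Hochberg adjustment over all 15249 tested genes at 0.05. Standard errors were derived from the fold change and the F statistic. Log2 CPM used a prior count of 2. Intervals and limits for a count of 0 cover counting error only. No pair of libraries within a group differed by so little as to be 1 library deposited again (smallest chi-square per degree of freedom 5.29). The edgeR, DESeq2 and limma-voom fits were also run on simulated counts with 200 changed genes. That is far fewer than the 3638 called here, so the simulation says nothing on the choice of scaling.

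The listed genes, their roles, the pathway list and the markers were chosen with earlier results of these data known. Values in every library are given for each called gene and for 10 genes whatever their result; of the pathway genes, the rule names the 12 with the smallest adjusted p, Jak1 and Tyk2, and 1 gene it names is not reported here. The alternatives were DESeq2 1.42.0, limma-voom (limma 3.58.1) with quality weights, DESeq2 size factors, library totals, no filter, a minimum count of 50, the replicate number as a block, other thresholds and leaving out each library. Figures were drawn with matplotlib 3.10.9.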

Additional observations from a re-analysis of the deposited data

Results flagged for a closer look

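Usp18 stood at 21.8 CPM in H-TBA replicate 2, far from the other 3 H-TBA libraries at 17.2 to 17.6 CPM. It was the only one of the 41 genes with such a gap within the H-TBA group, and chance gives about 1 in 20 groups.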

How the results depend on the processing

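The list's median stayed negative under all 14 alternatives, and it was -0.20 with library totals, where 4 of the 41 genes were higher and 9 lower; all genes gave 3117 higher and 832 lower, and the pathway list 6 and 7. With the stricter filter 1 pathway gene was higher. Leaving out 1 library gave 12 to 21 lower and 0 to 2 higher genes of the list, a median of -0.40 to -0.32, 1035 to 2123 lower and 1470 to 2429 higher of all genes, and 8 to 18 lower and 0 to 3 higher pathway genes; 0 of the list were higher without H-TBA 2, H-TBA 4, L-TBA 2 or L-TBA 3 by edgeR (2 to 3 at an unadjusted p under 0.05; DESeq2 gave 2 and limma-voom 3 on all libraries). An adjusted p of 0.01 left 10 lower and 0 higher of the list, 749 and 1126 of all genes and 7 and 0 of the pathway; at 0.1, 4 pathway genes were higher. The cause of these shifts was not tested.

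Same-numbered libraries did not deviate together (r = -0.103, -0.0589 and -0.0627 across genes). Each of these was the lowest r of its L-TBA library with any H-TBA library, and the highest r of any pair was 0.0942. Whether the numbers mark a shared batch or handling was not tested. With the replicate block 13 of the list were lower and 0 higher (edgeR; 23 and 3 at an unadjusted p under 0.05), 754 and 1166 of all genes, and 0 pathway genes were higher (3 at an unadjusted p under 0.05); H-TBA 4 has no partner and does not contribute to that estimate. The block kept 13 of the 22 calls of the list. The other 9 had an adjusted p of 0.126 (Ifngr1), 0.0522 (Irf7), 0.0512 (Adar), 0.173 (Oasl2), 0.0521 (Rsad2), 0.0948 (Cmpk2), 0.0973 (Samd9l), 0.11 (Rtp4) and 0.162 (Trim30a), and of the named pathway genes Ifitm3, Ifnlr1 and Ly6e were at 0.081, 0.06 and 0.142. No called gene reversed, while 7 uncalled genes (Irf3, Ddx58, Mx2, Isg20, Bst2, Ifi35 and Ifi44) changed sign under at least 1 alternative. Every listed gene had 27 or more counts per library. The interferon ligands, Trex1 and Ifit1bl1 of the pathway list and 8 of the 64 markers did not pass the filter on low counts. Trex1 and the marker Ly6g had 0 counts in every library. Whether depth or the way of counting kept these genes low was not tested.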
